A study of Caenorhabditis elegans with 7 samples.

Results

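The genes eri-6 and eri-7 of Caenorhabditis elegans encode the pieces of 1 helicase, and the values below are the small RNA reads at their splice sites. Every line of a table of splice junctions that names either gene was taken. These were 18 of 14533 lines with values, 16 for eri-6 and 2 for eri-7, and they describe 10 of 7536 introns in 2 of 3717 genes. Each line is 1 end of an intron and has an EEJ and an IEJ value per library. The labels do not expand the terms, and they are read here as exon-exon junction reads (spliced) and intron-exon junction reads (unspliced).

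Small RNA was cut from gels after extraction from embryos that hypochlorite had freed from adults, all in the N2 background. The groups are rnp-2(mg582) with 2 libraries, 1 in each of experiments 1 and 2, rnp-2(tm4058) with 1 library in experiment 2, mog-2(ok1221) and rnp-3(ok1424) with 1 library each in experiment 1, and wildtype with 2 libraries, 1 in each experiment. The gene rnp-2 encodes a homolog of the A protein of the U1 snRNP, which recognises 5′ splice sites, and mog-2 and rnp-3 encode homologs of the A′ and B″ proteins of the U2 snRNP. The labels do not say whether the libraries are from different cultures. The p-values thus measure a spread between libraries that can be technical. A single library of a genotype has no replicate check of its own.

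The eri-6 and eri-7 pre-mRNAs come from neighbouring genes in opposite orientation and are joined by trans-splicing into 1 mRNA. Its product, ERI-6/7, is a superfamily I helicase related to MOV10 and Armitage, and it acts with the Argonaute ERGO-1 in the endogenous siRNA pathway. Worms that lack it show an enhanced response to RNA interference. Secondary siRNAs are copied from RNA templates by RNA-dependent RNA polymerases, so a read across an exon-exon junction is the mark of a spliced template and a read across an intron end that of an unspliced one.

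In WBcel235 eri-6 (WBGene00016561) lies on chromosome I:4457375-4469460 on the plus strand and has 7 transcripts of isoforms a to f. The annotated start of eri-7 (WBGene00016566, I:4451194-4456805, minus strand) is 569 bases away. Between the 5′ exons of eri-6 shared by isoforms a to d and the downstream exons of isoforms e and f lies sosi-1 on the minus strand. It has a single exon and hence no junction to list. The end of exon 7 of isoforms b to d, at I:4458649, is not among the lines. The nearest line, at I:4458702, lies 53 bases past it, inside exon 7 of isoform a, and matches no annotated boundary. It had the same spliced reads in every library as the line at I:4460104, the annotated 3′ end of intron 7 of isoform b, and was therefore joined with it. The splice site sequences listed for these lines differ, whereas at the annotated joined introns of both genes they match. The donor (5′ splice site) sequence listed at I:4460104 is the same as at I:4463456, the 3′ end of intron 7 of isoform c. In the annotation that intron begins at the same exon 7 end as intron 7 of isoform b. No other eri-6 line shares the donor sequence of I:4458702. The join is thus uncertain. Lines were joined only within a gene, so a pair of an eri-6 end with an eri-7 end could not appear here. Whether small RNA reads cross the trans-spliced junction was therefore not tested.

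**Figure D1:**
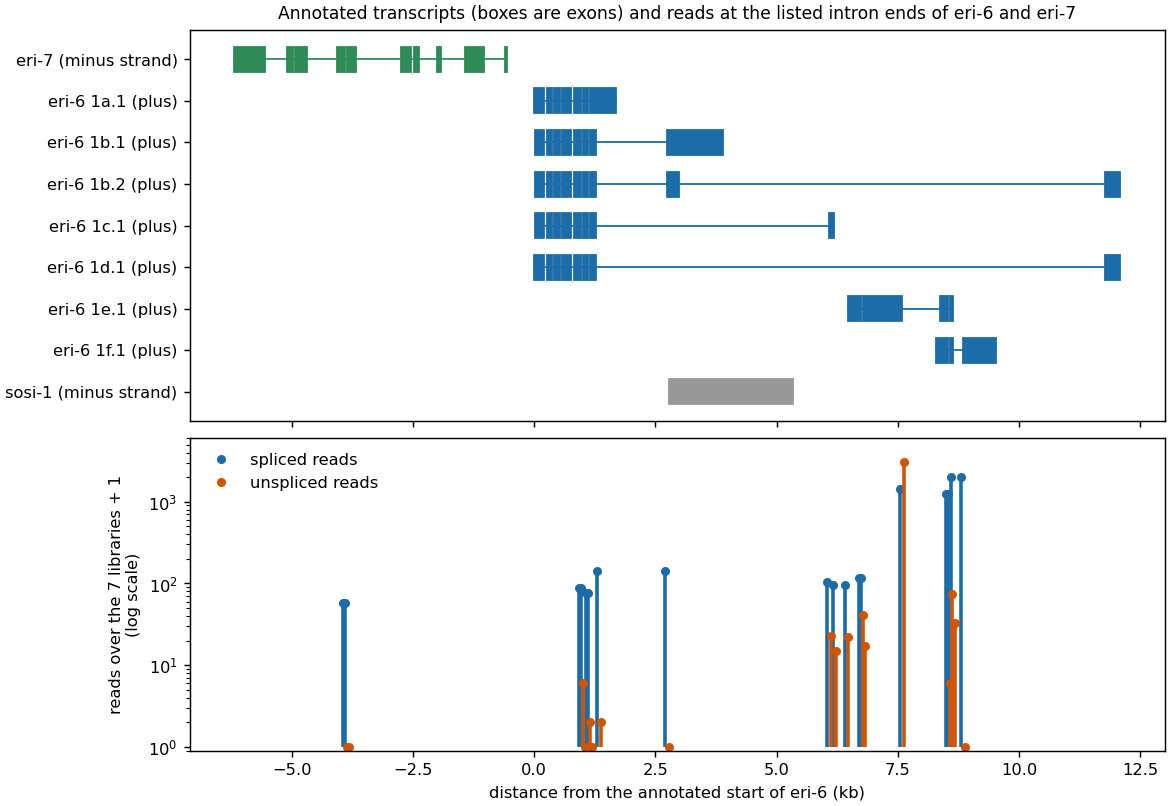
Annotated transcripts of eri-6, eri-7 and sosi-1 (top, boxes are exons) and the spliced and unspliced reads over the 7 libraries plus 1 at each listed intron end (bottom, log scale), against the distance from the annotated start of eri-6 in kb. Unspliced reads are drawn slightly to the right of spliced reads. The tallest unspliced point is the end of exon 2 of isoform e with 3023 reads.

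The libraries held 9901228 to 142819946 reads in all. Only 0.0564% to 2.03% of them were spliced or unspliced reads at the listed junctions, with each spliced junction counted once. Every line with values reached 0.505 CPM or more in at least 1 library, before any further scaling. In the larger libraries that takes more reads, and a gene or intron that is not listed can still have reads. Levels are given as scaled CPM, which is CPM after TMM scaling and is set against most listed junctions, not against the whole library. The smallest TMM factor was 0.0846, in rnp-2(tm4058), and the largest 2.97, in rnp-3(ok1424). Spliced rnp-2 reads numbered 12 and 10 in the rnp-2(mg582) libraries and 1 in the rnp-2(tm4058) library, against 11 and 15 in wildtype. Spliced rnp-3 reads numbered 0 in the rnp-3(ok1424) library, against 5 and 8 in wildtype, and mog-2 is not among the genes analysed here. Small RNA at a gene is not its mRNA level. Of 12 germline and early embryo markers 9 had listed junctions, with summed levels of 7.59 to 9.27 scaled CPM in the mutant libraries and 9.0 and 10.1 scaled CPM in wildtype. Of 5 adult intestine markers 0 were listed. The 3 listed sperm markers of 4 summed to 1.16 to 2.93 scaled CPM in the mutant libraries and 3.57 and 2.91 scaled CPM in wildtype, with a median log2 difference of -0.01 in rnp-2(mg582). Of the 3, spe-41 was lower in rnp-2(mg582), at a log2 difference of -1.43 (limma adjusted p = 0.0149), while the differences were 0.40 at spe-47 (adjusted p = 0.358) and -0.01 at spe-39 (adjusted p = 0.980). The part of these markers in the results below was not tested.

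Small RNA at eri-6 was abundant and that at eri-7 scarce in every library. At eri-6, 90.6% of the spliced reads over all libraries lay at junctions of isoforms e and f. In the annotation these share no exon with isoforms a to d. By spliced reads eri-6 ranked from 43 to 109 of 3717 genes, and eri-7 from 1803 to 3150. The eri-6 gene had 533 and 409 spliced reads in rnp-2(mg582), 119 in rnp-2(tm4058), 975 in mog-2(ok1221) and 677 in rnp-3(ok1424), against 1106 and 1495 in wildtype. These came to 17.2 and 12.3 scaled CPM in rnp-2(mg582), 9.85 in rnp-2(tm4058), 28.6 in mog-2(ok1221) and 23.0 in rnp-3(ok1424), against 22.6 and 19.7 scaled CPM in wildtype. The 3 libraries of the rnp-2 alleles were below both wildtype libraries, and the libraries of mog-2(ok1221) and rnp-3(ok1424) above them, rnp-3(ok1424) by less than the counting error.

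Spliced eri-6 reads averaged 14.8 ± 3.46 scaled CPM in rnp-2(mg582) and 21.1 ± 2.02 scaled CPM in wildtype (SD, n = 2 each), a log2 difference of -0.52 ± 0.24 (SE). This did not pass the test (limma with Benjamini-Hochberg adjustment, adjusted p = 0.263), by which 8.34% of 3551 genes were called. Scaled by library size and not by TMM, the log2 difference was -1.18 and 0 genes were called by limma, 93 at an unadjusted p under 0.05, and the median of all genes moved from -0.02 to -0.24. Without the second rnp-2(mg582) library the log2 difference was -0.29, and without the first it was -0.75. With the experiment as a block, since the titles number the libraries by experiment, the adjusted p was 0.0370 and 20.5% of genes were called. Within experiment 1 the scaled ratio of rnp-2(mg582) to wildtype was 0.763 (95% exact interval 0.687 to 0.847), and within experiment 2 it was 0.625 (0.559 to 0.698). These intervals, like the others below, cover counting error only. Fewer spliced reads per template and fewer templates cannot be told apart in such libraries.

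The second allele, rnp-2(tm4058), stood lower still. Its scaled ratio to the wildtype library of the same experiment was 0.50 (0.411 to 0.603), and the log2 difference from wildtype was -1.06 ± 0.30 (SE). The limma adjusted p was 0.0683, in a fit that called 7.97% of genes, and 0.00734 with the experiment as a block, which called 18.9%. It was also under the threshold at 0.0341 when only genes averaging 5 scaled CPM or more were tested, a fit that called 66 of 222 genes. Over the alternatives it ranged from 0.00734 to 0.562. Before scaling the ratio was 0.0492, as this library had only 73842 spliced reads in 142819946.

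Neither of the U2 snRNP mutants, with 1 library each, passed this test, which does not show that they were like wildtype. In mog-2(ok1221) the log2 difference of spliced eri-6 reads was 0.43 (limma adjusted p = 0.480, with 2.14% of genes called), and the same-experiment scaled ratio was 1.27 (1.16 to 1.38). In rnp-3(ok1424) it was 0.12 (adjusted p = 0.901, 0.197% called), with a ratio of 1.02 (0.925 to 1.12). For the 5 mutant libraries together against wildtype it was -0.31 (adjusted p = 0.888). That comparison called 0.0% of genes by limma, with 329 at an unadjusted p under 0.05, 0 by edgeR and 53 by DESeq2.

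**Figure D2:**
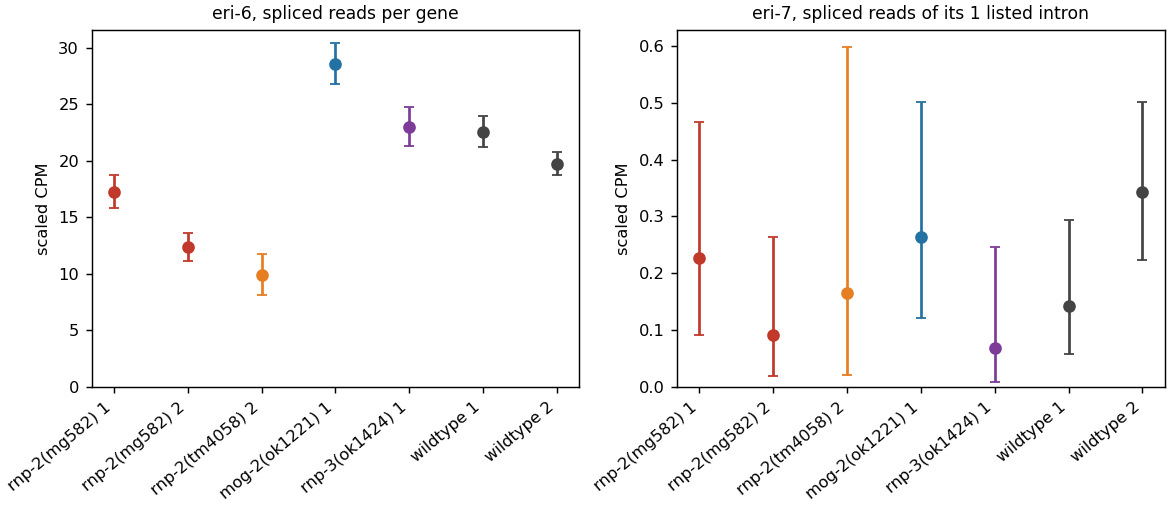
Spliced reads of eri-6 (left) and eri-7 (right) in scaled CPM for each library, mutants left of wildtype. Points are single libraries and bars are 95% exact Poisson intervals of the reads, which cover counting error only. The 3 rnp-2 libraries lie between 9.85 and 17.2 scaled CPM at eri-6, below the wildtype libraries at 22.6 and 19.7, while at eri-7 every mutant interval overlaps that of each wildtype library, some of them by little.

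Only intron 6 of eri-7 (I:4453473-4453518) of its 9 annotated introns was listed. Only mog-2(ok1221), at 0.689 CPM before scaling, reached the 0.505 CPM that every listed line reaches in some library. The other libraries were at 0.480 CPM or less, so the mog-2(ok1221) comparison at eri-7 depends on the listing. Intron 6 had 7 and 3 spliced reads in rnp-2(mg582), 2 in rnp-2(tm4058), 9 in mog-2(ok1221) and 2 in rnp-3(ok1424), against 7 and 26 in wildtype. Scaled, these were 0.226 and 0.0904 CPM in rnp-2(mg582), 0.166 in rnp-2(tm4058), 0.264 in mog-2(ok1221) and 0.0679 in rnp-3(ok1424), against 0.143 and 0.343 CPM in wildtype. The mutant libraries overlapped with wildtype. Within experiment 2 the scaled ratio of rnp-2(mg582) to wildtype was 0.264 (0.0511 to 0.861), and within experiment 1 it was 1.58 (0.474 to 5.29). Unspliced reads numbered 0 at both ends in every library. The log2 difference was -0.17 in rnp-2(mg582) (limma adjusted p = 0.654), -0.15 in rnp-2(tm4058) (0.708), 0.05 in mog-2(ok1221) (0.934), -0.37 in rnp-3(ok1424) (0.553) and -0.16 for the 5 mutant libraries together (0.854). No eri-7 comparison passed the limma test, which does not show that the levels were alike. Every eri-7 level was below the pseudocount of 0.5 scaled CPM, which draws the log2 differences above towards 0. With a pseudocount of 0.1 the log2 difference was -0.40 in rnp-2(mg582), -0.30 in rnp-2(tm4058) and 0.15 in mog-2(ok1221). By edgeR it was -0.68, -0.60 and 0.06 in the same order.

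Within eri-6 the spliced reads lay mostly in the downstream isoforms. The gene-level differences above are thus mostly those of isoforms e and f, not of the exons that isoforms a to d share. Over all libraries 4812 of 5314 spliced reads (90.6%) were at the 4 junctions of isoforms e and f, 408 (7.68%) at the 4 junctions assigned to isoforms a to d, and 94 (1.77%) at an unannotated pair of ends, I:4463567 and I:4463814. The acceptor sequences listed for that pair differ, so its join is uncertain as well. The share of isoforms e and f was 88.9% and 89.7% in rnp-2(mg582), 93.3% in rnp-2(tm4058), 89.2% in mog-2(ok1221) and 92.3% in rnp-3(ok1424), against 91.0% and 90.9% in wildtype. All of these lie within 5 percentage points of each other.

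The 5′ part of the gene, which holds the exons that isoforms a to d share, carried few reads. Intron 5 (I:4458332-4458381) had 88 spliced reads in all and intron 6 (I:4458489-4458533) had 75. The level of intron 5 was 0.323 and 0.331 scaled CPM in rnp-2(mg582), 0.331 in rnp-2(tm4058), 0.322 in mog-2(ok1221) and 0.340 in rnp-3(ok1424), against 0.245 and 0.395 in wildtype. Its mutant libraries thus lay between the wildtype libraries. Of the alternative ends of intron 7, the one of isoform b at I:4460104 had 141 reads and the one of isoform c at I:4463456 had 104. The end of isoform c had 14 and 10 reads in rnp-2(mg582), 0 in rnp-2(tm4058), 25 in mog-2(ok1221) and 12 in rnp-3(ok1424), against 21 and 22 in wildtype. A count of 0 allows up to 3 reads.

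The downstream junctions carried the abundance. The last of them, intron 2 of isoform f (I:4466009-4466214), had 220 and 159 spliced reads in rnp-2(mg582), 42 in rnp-2(tm4058), 355 in mog-2(ok1221) and 312 in rnp-3(ok1424), against 477 and 466 in wildtype. Scaled, these were 7.10 and 4.79 CPM in rnp-2(mg582), 3.48 in rnp-2(tm4058), 10.41 in mog-2(ok1221) and 10.60 in rnp-3(ok1424), against 9.73 and 6.14 CPM in wildtype, so that mog-2(ok1221) and rnp-3(ok1424) had fewer reads than wildtype but a higher scaled level. The intron before it (I:4465907-4465950, intron 3 of isoform e and intron 1 of isoform f) had 143 and 74 in rnp-2(mg582), 19 in rnp-2(tm4058), 288 in mog-2(ok1221) and 158 in rnp-3(ok1424), against 277 and 283 in wildtype. Its scaled levels were 4.62 and 2.23 CPM in rnp-2(mg582), 1.57 in rnp-2(tm4058), 8.44 in mog-2(ok1221) and 5.37 in rnp-3(ok1424), against 5.65 and 3.73 CPM in wildtype. At both introns, rnp-2(mg582) and wildtype each had the higher scaled level in experiment 1. Intron 1 of isoform e (I:4464116-4464157) had 16 and 1 in rnp-2(mg582), 2 in rnp-2(tm4058), 38 in mog-2(ok1221) and 12 in rnp-3(ok1424), against 29 and 19 in wildtype. Scaled, these were 0.517 and 0.0301 CPM in rnp-2(mg582), 0.166 in rnp-2(tm4058), 1.11 in mog-2(ok1221) and 0.408 in rnp-3(ok1424), against 0.592 and 0.250 CPM in wildtype.

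Of the 10 junctions, 0 passed the test for spliced reads in rnp-2(mg582) against wildtype, by which limma called 6.34% of 6874 junctions, 436 in all. That number was 5 without the first wildtype library, 0 without the second, 172 and 175 without the first and the second rnp-2(mg582) library, and 0 with library size alone. Their log2 differences ran from -0.69 at the end of exon 2 of isoform e (I:4464959, adjusted p = 0.315) to 0.03 at I:4463456 (adjusted p = 0.961). With the experiment as a block I:4464959 passed (adjusted p = 0.0129, in a fit that called 19.5% of junctions). At an unadjusted p under 0.05, and by edgeR and by DESeq2 after adjustment, 0 of the 10 passed as well.

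**Figure D3:**
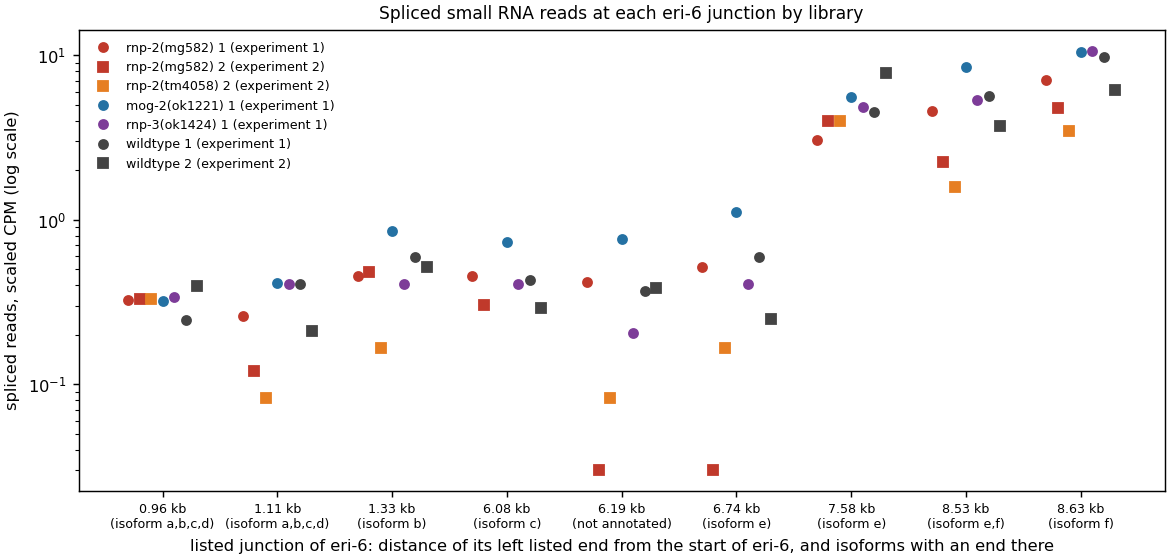
Spliced reads in scaled CPM (log scale) at each of the 9 eri-6 junctions, from the 5′ end of the gene at the left, with libraries in the order of the legend, mutants left of wildtype, circles for experiment 1 and squares for experiment 2. Libraries with 0 reads are not drawn. The 3 junctions at the right, of isoforms e and f, lie above 1 scaled CPM in all libraries, and the 5 at the left stay below it.

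The unspliced reads of eri-6 came almost wholly from 1 place, the end of exon 2 of isoform e at I:4464959, where intron 2 of that isoform begins. Only this end of the intron was listed. It held 3023 of the 3254 unspliced reads of eri-6 (92.9%), and between 91.3% and 94.9% in each library. By unspliced reads it ranked from 2 to 8 among 14533 lines. The other 15 lines of eri-6 together had 231 unspliced reads, of which 74 were at I:4465950 and 40 at I:4464115. Unspliced reads as a share of all reads at the line did not move alike at these lines. At I:4465950 they were 5.30% and 12.9% in rnp-2(mg582), against 3.82% and 4.71% in wildtype. At I:4463456, with 22 unspliced reads over all libraries, they were 12.5% and 9.09% in rnp-2(mg582), against 19.2% and 37.1% in wildtype.

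At I:4464959 unspliced and spliced reads numbered 404 and 95 in the first rnp-2(mg582) library and 468 and 133 in the second. They numbered 188 and 48 in rnp-2(tm4058), 577 and 189 in mog-2(ok1221) and 249 and 143 in rnp-3(ok1424). In wildtype they numbered 423 and 223 in the first library and 714 and 591 in the second. The unspliced share, which no scaling changes, was 81.0% (95% Wilson interval 77.3 to 84.2) and 77.9% (74.4 to 81.0) in rnp-2(mg582), 79.7% (74.1 to 84.3) in rnp-2(tm4058), 75.3% (72.2 to 78.2) in mog-2(ok1221) and 63.5% (58.6 to 68.1) in rnp-3(ok1424), against 65.5% (61.7 to 69.0) and 54.7% (52 to 57.4) in wildtype. The shares of both rnp-2 alleles and of mog-2(ok1221) were above both wildtype libraries, and the share of rnp-3(ok1424) lay between them.

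An unspliced share of this size was rare in the table. Among lines with at least 20 reads the median unspliced share was 0% in every library, and 2.84% to 3.93% of such lines had more unspliced than spliced reads. Unspliced reads exceeded spliced ones at I:4464959 in all 7 libraries, wildtype included.

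Within an experiment, unspliced reads per spliced read were 4.25 in rnp-2(mg582) against 1.90 in wildtype in experiment 1, and 3.52 against 1.21 in experiment 2. They were 3.92 in rnp-2(tm4058) against 1.21 in the wildtype library of experiment 2. For mog-2(ok1221) they were 3.05 against 1.90, and for rnp-3(ok1424) 1.74 against 1.90, in experiment 1. Wildtype itself differed between experiments by about the size of the mog-2(ok1221) difference.

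**Figure D4:**
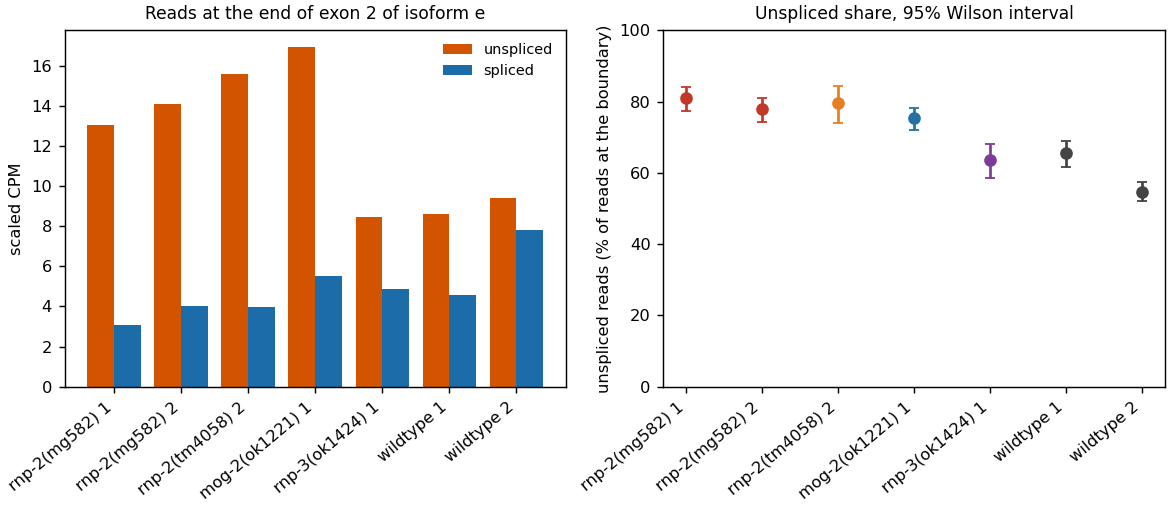
Unspliced and spliced reads in scaled CPM (left) and the unspliced share in % with its 95% Wilson interval (right) at the end of exon 2 of eri-6 isoform e for each library, mutants left of wildtype. The share is 75.3% to 81.0% in the rnp-2 and mog-2 mutant libraries, against 65.5% and 54.7% in wildtype, and 63.5% in rnp-3(ok1424).

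Over the whole gene, the log2 difference between unspliced and spliced eri-6 reads was higher in rnp-2(mg582) than in wildtype by 1.04 ± 0.29 (SE). This passed the test (limma adjusted p = 0.0196), which called 21.9% of 366 genes, 62 of them higher and 18 lower, with a median over all genes of 0.13. With library size alone 13 genes were higher and 9 lower. It no longer passed without the second rnp-2(mg582) library (difference 0.76, adjusted p = 0.164), without the first wildtype library (0.90, 0.0987) or without the second (1.19, 0.133). It did not pass with library size alone (1.04, 0.165) or with a pseudocount of 0.1 (1.07, 0.180) either, within a range of 0.00264 to 0.180 over the alternatives.

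The unspliced reads at I:4464959 alone were at 13.0 and 14.1 scaled CPM in rnp-2(mg582), against 8.63 and 9.41 in wildtype, a log2 difference of 0.56 ± 0.22 (SE) that turned to -0.10 with library size alone. The limma adjusted p was 0.134, in a fit that called 13.6% of 648 boundaries, and 0.000179 with the experiment as a block, which called 38.9%. The 88 boundaries called became 0 with any of the 4 libraries left out and with library size alone. The difference between unspliced and spliced reads at that boundary was added after its reads had been seen. It was 1.25 ± 0.30 (SE) higher in rnp-2(mg582) (adjusted p = 0.0620, 9.68% of 310 boundaries called) and 1.29 ± 0.36 higher in rnp-2(tm4058) (adjusted p = 0.0900, 9.03% called). The 30 boundaries called in rnp-2(mg582) and the 28 in rnp-2(tm4058) became 0 without either wildtype library. With the experiment as a block the adjusted p was 0.000127 for rnp-2(mg582), with 37.1% of boundaries called, and 0.000496 for rnp-2(tm4058), with 33.5% called. In mog-2(ok1221) it was 0.97 ± 0.36 (adjusted p = 0.359) and in rnp-3(ok1424) 0.19 ± 0.36 (adjusted p = 0.909). For the 5 mutant libraries together it was 0.99 ± 0.36 (adjusted p = 0.494). These 3 comparisons called 0 of 310 boundaries each by limma, with 38, 23 and 25 at an unadjusted p under 0.05.

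Of 38 other factors of the pathway, which make or use siRNAs, 23 had listed junctions and all 23 were tested. In rnp-2(mg582) 0 rose and 0 fell, near the background of 3.77% of all genes that rose and 4.56% that fell, with a median log2 difference of -0.11 against -0.02 over all genes. In rnp-2(tm4058), with a background of 3.6% and 4.36%, 1 rose and 0 fell, and in mog-2(ok1221), rnp-3(ok1424) and the 5 mutant libraries together 0 passed by limma. The component rde-11, needed for exogenous RNA interference, was at 18.6 ± 3.01 scaled CPM in rnp-2(mg582) and 9.87 ± 1.96 in wildtype (SD, n = 2 each, limma adjusted p = 0.0692). The nuclear RNA interference factor nrde-2 was at 2.38 ± 0.00651 in rnp-2(mg582) and 5.11 ± 0.511 in wildtype (limma adjusted p = 0.0588), and eri-3, a partner of Dicer in the ERI complex, at 2.50 ± 0.761 and 2.48 ± 0.106 (limma adjusted p = 0.983).

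Genes that ERGO-1 siRNAs target moved in both directions. Of 25 on the list 17 were in the table and 16 were tested, of which 8 rose and 3 fell in rnp-2(mg582), where 3.77% of all genes rose and 4.56% fell. In rnp-2(tm4058), where 3.6% of all genes rose and 4.36% fell, 3 rose and 2 fell. In mog-2(ok1221), rnp-3(ok1424) and the 5 mutant libraries together 0 passed by limma. F55C9.3 was at 98.6 and 172.0 scaled CPM in rnp-2(mg582), against 13.4 and 10.2 in wildtype (limma adjusted p = 0.00144). Y116F11A.1 was at 22.1 and 23.9 against 5.49 and 4.18 (limma adjusted p = 0.00301). F55C9.5 was at 45.0 and 120.3 in rnp-2(mg582), against 9.0 and 10.6 in wildtype (limma adjusted p = 0.00582), and C44B11.6 at 1.78 and 2.86, against 0.0612 and 0.105 (limma adjusted p = 0.00253). In the other direction, E01G4.5 was at 67.2 and 46.7 scaled CPM in rnp-2(mg582), against 151.0 and 220.0 in wildtype (limma adjusted p = 0.00470), and F39F10.4 at 0.614 and 0.151 against 8.49 and 5.75 (limma adjusted p = 0.00250). The list was drawn up with earlier results of these data known, so its counts are not independent evidence of a direction.

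The neighbouring genes within 50 kb in the table were cps-6, which encodes a mitochondrial endonuclease, and C41D11.5. In rnp-2(mg582) cps-6 was at 1.16 and 1.27 scaled CPM, against 1.12 and 0.870 in wildtype (limma adjusted p = 0.684). C41D11.5 was at 0.129 and 0.121, against 0.0408 and 0.132 in wildtype (limma adjusted p = 0.743). Neither passed the test.

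The genes whose spliced reads over the 7 libraries were most like those of eri-6, among 221 that averaged 5 scaled CPM or more, were linc-29 (Pearson r = 0.97), fkb-8 (0.97), W03H9.2 (0.96), T22B2.5 (0.95) and zip-2 (0.93). The likeness is a description over 7 libraries that share experiments and scaling. For eri-7 the most alike was F53G2.2 (r = 0.80), at counts of 2 to 26 reads per library for eri-7.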

How the data were processed

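Values at splice junctions were deposited as CPM, which are reads scaled to the library total, per the file headers. The submitters' processing notes list STAR and SAMtools. Genome build, treatment of multiply aligned reads and strand use were not given in the sources used here, so overlapping and antisense genes cannot be told apart. Of the lines, 98.1% lie at WBcel235 boundaries, and coordinates are read as WBcel235, 1-based. A further 24 lines without values were not analysed here.

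Whole reads were recovered from the CPM steps (100% of values whole within 1e-06 in each library). Neighbouring lines of a gene with equal spliced reads were joined into introns, and introns of a gene that differed by at most 5% with at least 20 reads were counted once. Reads were summed per gene, scaled by TMM factors (edgeR 4.0.16), and log2(scaled CPM + 0.5) was fitted in limma 3.58.1 (R 4.3.3) with 1 coefficient per genotype over the 7 libraries and Benjamini-Hochberg adjustment at 0.05. The 5 mutant libraries were also compared as 1 group with wildtype. A genotype with 1 library is assumed to vary like the others. Genes were kept by filterByExpr (minimum count 10, minimum total 15) on library totals. A first run applied that filter to scaled library sizes, and the 5 CPM alternative to CPM before scaling. Both were changed after the values of the first run had been seen, and both are kept among the alternatives. The tests were checked on simulated data for rnp-2(mg582) against wildtype, with changes set in features above 5 scaled CPM. Of 2-fold changes, 47% were recovered per gene and 26% per junction. Of 4-fold changes, 99% and 100% were recovered. Changes of 2-fold or less can thus be missed. The simulated counts had 1 assumed dispersion for all features and no difference between experiments, so recovery in these data can differ. It was not checked for changes in features below 5 scaled CPM, eri-7 and most eri-6 junctions among them. edgeR's quasi-likelihood test on the recovered reads called 325 genes in rnp-2(mg582) against wildtype, against 296 by limma, and DESeq2 1.42.0 called 182.

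The numbers in the titles mark experiments, and so pair the libraries; a fit with the experiment as a block was the alternative and leaves 1 residual degree of freedom. The difference between experiments 1 and 2 correlated between rnp-2(mg582) and wildtype at r = 0.38 over 3551 genes. Other alternatives were the scaling, the pseudocount, the filter, the counting of introns, and leaving out each library.

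The genes, gene lists and naming rules (each list's members with an adjusted p under 0.05 in rnp-2(mg582), at most 4 by p, and the 3 of highest mean) were chosen with earlier results of these data known. Intervals are at 95%.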

Additional observations from a re-analysis of the deposited data

Results flagged for a closer look

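Spliced eri-7 reads in rnp-2(mg582) against wildtype moved opposite ways in the 2 experiments. The scaled ratio was 1.58 in experiment 1 (7 reads in rnp-2(mg582) and 7 in wildtype) and 0.264 in experiment 2 (3 reads in rnp-2(mg582) and 26 in wildtype). The difference between the experiments was not tested. By a Dixon criterion (gap over range above 0.71), 0 of 13 values examined over the 5 mutant libraries were flagged. With so few libraries, of different genotypes, this check could flag little and does not show that no library was deviant.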

How the results depend on the processing

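The values are log2 differences against wildtype unless counts are named. With the experiment as a block, spliced eri-6 reads passed in rnp-2(mg582) (-0.52) and rnp-2(tm4058) (-0.90) and had the other sign in rnp-3(ok1424) (-0.042). So did the reads at I:4464959, spliced (-0.69), unspliced (0.56) and as their difference in rnp-2(mg582) (1.25) and rnp-2(tm4058) (1.49), while the rnp-3(ok1424) difference turned to -0.021. Spliced eri-6 reads in rnp-2(tm4058) passed with a mean of at least 5 CPM, scaled or before scaling (-1.06 in both), and unspliced reads at I:4464959 with the scaled form (0.56). These fits called 66 of 222 genes, 84 of 351 genes and 6 of 16 boundaries. The eri-6 difference per gene was lost with library size alone (1.04) and a pseudocount of 0.1 (1.07), and ran from 0.76 to 1.33 when 1 library was left out. The boundary difference in rnp-2(mg582) passed with library size alone (1.19), a pseudocount of 1 (1.17), no filter or 5 CPM before scaling (1.25 in both). In the same order, these fits called 18 of 310, 38 of 310, 327 of 4879 and 3 of 3 boundaries. The difference ran from 0.96 to 1.55 without 1 library. In rnp-2(tm4058) it passed with no filter (1.29), where 234 of 4879 boundaries were called. In rnp-3(ok1424) it ran from -0.11 to 0.48 without 1 library. With library size alone the sign turned for unspliced reads at I:4464959 (-0.10), I:4465950 (-0.032) and I:4466008 (-0.017) and for spliced reads at intron 5 (-0.15) and I:4463456 (-0.17). Leaving out 1 library, eri-7 ran from -0.36 to 0.026 in rnp-2(mg582), per gene and per intron, -0.34 to 0.050 in rnp-2(tm4058), -0.14 to 0.25 in mog-2(ok1221) and -0.36 to 0.035 for the 5 mutant libraries. Likewise in rnp-2(mg582), intron 5 ran from -0.11 to 0.15, I:4463456 from -0.096 to 0.15, the unannotated pair from -0.72 to 0.073, intron 1 of isoform e from -0.77 to 0.17 and I:4465907-4465950 from -0.90 to 0.0047. The number of genes called in rnp-2(mg582) was 296, against 728 with the block, 0 with library size alone, 182 by DESeq2, 52 with 5 scaled CPM and 101 to 184 without 1 library. In rnp-2(tm4058) it was 283, against 670, 0, 113, 66 and 31 to 163, with 138 by edgeR and 121 with no filter. In mog-2(ok1221) it was 76, against 537 with the block and 0 to 55 without 1 library, in rnp-3(ok1424) 7, against 157 and 0 to 13, and for the 5 mutant libraries 0, against 95 without rnp-3(ok1424). The difference per gene was called for 80 genes, against 22 with library size alone, 243 with no filter, 4 with 5 scaled CPM and 14 to 74 without 1 library. The first-run filters left every eri-6 and eri-7 call as it was, other than the 2 named above under 5 CPM before scaling. The boundary difference and the first-run filters were chosen after seeing the data. The cause of these changes was not tested.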
